A study of Mus musculus with 18 samples.

Results

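The genes known to specify primordial germ cells were examined in mouse induced pluripotent stem cells (iPSCs) before and after the induction of epiblast-like cells (EpiLCs), with and without the chromatin protein Hmga2. The 8 genes are Prdm1, Prdm14, Tfap2c, Dppa3, Nanos3, Dnd1, Ifitm3 and Kit, taken by their symbols from a table of 45706 genes, in which all 8 have a row. The 18 libraries form 6 groups of 3 independent biological replicates, from 1 wt clone and 2 Hmga2 KO clones (KO#1 and KO#2), each sampled at 0 h and 24 h of induction. The iPSCs of 0 h grew with LIF and the 2i inhibitors over a layer of mitotically inactivated fibroblasts, whereas EpiLCs were grown feeder-free on Geltrex, a basement membrane extract, in a medium with Activin A and bFGF. Hence the loss of the feeder layer and the time of induction cannot be told apart. Among the KO#2-labelled libraries Hmga2 was near the wt mean at 24 h (log2 fold change -0.04, adjusted p = 0.966). Their values were 3.02, 3.48 and 10.5 CPM from lowest to highest, against 5.51 to 5.93 CPM in wt. From 0 h to 24 h the mean fell from 17.7 to 5.77 CPM in wt, while the KO#2-labelled libraries had 4.73 and 5.65 CPM. At 0 h their log2 difference from wt was -1.90 (adjusted p = 0.023). In KO#1 it was -1.71 and -1.36 at 0 h and 24 h (adjusted p = 0.124 and 0.22). For Hmga2 suppression the paper cites a western blot of wt and KO clones, whereas the data analysed here hold RNA only. For KO#1 and KO#2 alike, KO is therefore used as the label of the group.

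Primordial germ cells are the founders of sperm and eggs, and in the mouse embryo a few cells of the posterior epiblast become germ cells under bone morphogenetic protein (BMP) signals. Cells on the way through the EpiLC state are the usual starting point for making primordial germ cell-like cells in culture, which then requires BMP4. No BMP is named among the factors added here. Prdm1 (Blimp1), Prdm14 and Tfap2c (AP-2 gamma) are the transcription factors at the head of the germ cell programme, and Prdm14 and Tfap2c are also expressed in naive pluripotent cells. Dppa3 (Stella) shields maternal DNA from demethylation in the early embryo and marks germ cell precursors. Nanos3 and Dnd1 bind RNA and keep germ cells alive, Ifitm3 (Fragilis) is an interferon-induced membrane protein, and Kit is the receptor for stem cell factor.

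The genes lie on 8 different chromosomes of GRCm38. Prdm14 is at chr1:13113457-13127163 on the minus strand, Tfap2c at chr2:172549593-172558622 on the plus strand, Kit at chr5:75574916-75656722 on the plus strand and Dppa3 at chr6:122626410-122630272 on the plus strand. Ifitm3 is at chr7:141009586-141010770, Nanos3 at chr8:84173731-84185217 and Prdm1 at chr10:44437177-44528501, all on the minus strand. Of the 75-base words of Dppa3 3.79% also occur in the pseudogene Dppa3-ps, and of those of Ifitm3 0.662% occur in Gm7676. Prdm1, Prdm14, Tfap2c, Nanos3 and Kit shared no 75-base word with another gene.

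Promoter windows from RefSeq (GRCm38.p6), which span 250 bases before and 50 bases after an annotated start, matched 4 of the 8 genes (Prdm1, Kit, Ifitm3 and Nanos3). The windows of Prdm1 and Kit, whose RNA fell in all 3 lines during induction, are shown with that of Ifitm3, whose RNA did not pass the test in any line. Capitals mark matches, on either strand, to the GC box GGGCGG, the CCAAT box, the AP-2 site GCCNNNGGC or the interferon response core (GAAA, any 2 bases, and GAAA again).
Prdm1, chr10:44458699-44458998, minus strand: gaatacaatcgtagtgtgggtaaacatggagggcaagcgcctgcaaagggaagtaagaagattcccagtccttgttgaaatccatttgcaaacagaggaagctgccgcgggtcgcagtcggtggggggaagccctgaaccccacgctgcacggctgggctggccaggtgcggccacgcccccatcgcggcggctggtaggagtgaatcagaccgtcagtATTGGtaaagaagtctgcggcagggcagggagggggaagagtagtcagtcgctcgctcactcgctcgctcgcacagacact
Kit, chr5:75574737-75575036, plus strand: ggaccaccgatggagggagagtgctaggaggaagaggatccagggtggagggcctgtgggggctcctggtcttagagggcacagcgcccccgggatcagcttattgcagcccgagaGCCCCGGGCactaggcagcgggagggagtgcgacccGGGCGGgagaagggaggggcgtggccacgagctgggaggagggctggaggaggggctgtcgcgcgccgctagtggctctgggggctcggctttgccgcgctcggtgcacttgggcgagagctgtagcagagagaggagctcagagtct
Ifitm3, chr7:141010695-141010994, minus strand: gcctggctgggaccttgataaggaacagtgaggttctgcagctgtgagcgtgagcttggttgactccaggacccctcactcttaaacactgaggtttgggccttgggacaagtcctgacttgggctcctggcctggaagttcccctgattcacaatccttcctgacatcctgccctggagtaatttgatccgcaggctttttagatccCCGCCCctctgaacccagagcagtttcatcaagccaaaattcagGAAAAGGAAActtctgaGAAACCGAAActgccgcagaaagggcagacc

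The Prdm1 window held 1 match, a CCAAT box on the opposite strand 31 bases before the start. The Kit window held an AP-2 site 134 bases and a GC box 98 bases before the start. In the Ifitm3 window 2 interferon cores began 3 and 20 bases past the start, and a GC box lay on the opposite strand 42 bases before it. None of the matches in these 3 windows overlapped. Of 32851 mouse promoter windows of the same length, 35.7% held a GC box, 37.4% a CCAAT box, 16.6% an AP-2 site and 3.44% an interferon core, while 0.225% held at least 2 interferon cores. The windows of Prdm1 and Kit had 20 CpG dinucleotides each and that of Ifitm3 had 5, against a median of 7.0 over all windows. These matches are letters in a reference sequence, and no binding was measured in the data analysed here.

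The libraries held 3466436 to 23872837 counts, so that 3 counts corresponded to 0.116 to 0.984 CPM, the count relative to the library total scaled by its TMM factor. Genes of pluripotent cells were present in every library, with a summed level of 1270 to 2970 CPM over 6 genes, and 4 genes of the formative epiblast summed to 71.8 to 113 CPM at 0 h and 351 to 1390 CPM at 24 h. The sum over 8 fibroblast genes was 110 to 390 CPM in wt, 183 to 514 in KO#1 and 331 to 898 in the KO#2-labelled libraries at 0 h. At 24 h it was 19 to 34.6, 38.7 to 51.8 and 71 to 219 CPM, with Dcn at 0 in wt at 0 h and all other fibroblast genes detected in every group. Primitive endoderm genes (5 in the list) summed to 7.58 to 13.8 CPM in the KO#2-labelled libraries at 24 h and to 0.865 to 4.67 CPM elsewhere. Mesendoderm genes (4) summed to 1.98 to 18 CPM and trophoblast genes (5) to 1.25 to 11 CPM, with Hand1 at 0 in wt at both times and Elf5 at 0 in wt and KO#1 at 0 h. From 41.3% to 84.7% of the counts fell in protein-coding genes, averaging 61.3% in wt, 69% in KO#1 and 78% in the KO#2-labelled libraries before induction. The averages of the EpiLCs were 54.4%, 51.6% and 83.1%. In bulk RNA fewer cells of a type and less RNA per cell cannot be told apart.

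Per kilobase of exon, Ifitm3 was the most abundant of the 8 genes in every group. In wt iPSCs it reached 82.8 ± 28.9 CPM per kb (mean ± SD, n = 3, as for all means here), followed by Prdm14 at 16.6 ± 3.84, Kit at 16.0 ± 3.12 and Tfap2c at 10.9 ± 1.86. Dnd1 (3.23 ± 0.815), Dppa3 (2.71 ± 1.03) and Prdm1 (2.64 ± 0.971) formed a lower tier whose members did not differ beyond their spread, nor did Prdm14 and Kit. Nanos3 was at 0.0632 ± 0.0549 CPM per kb.

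In wt EpiLCs at 24 h the order per kilobase was different. Ifitm3 stayed first at 85.1 ± 5.53 CPM per kb and Dnd1 was second at 5.86 ± 1.17. Dppa3 (1.52 ± 0.312), Kit (0.733 ± 0.219), Tfap2c (0.653 ± 0.0808), Nanos3 (0.634 ± 0.166), Prdm1 (0.399 ± 0.0672) and Prdm14 (0.263 ± 0.011) followed, with Kit, Tfap2c and Nanos3 within their spread of each other. By these means Prdm14 moved from the second place to the last. In the KO#2-labelled libraries at 24 h Prdm14 was at 1.46 ± 1.12 CPM per kb, within the spread of Kit (1.89 ± 0.565), Dnd1 (1.81 ± 0.181), Dppa3 (1.42 ± 0.365) and Prdm1 (1.24 ± 0.232).

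**Figure D1:**
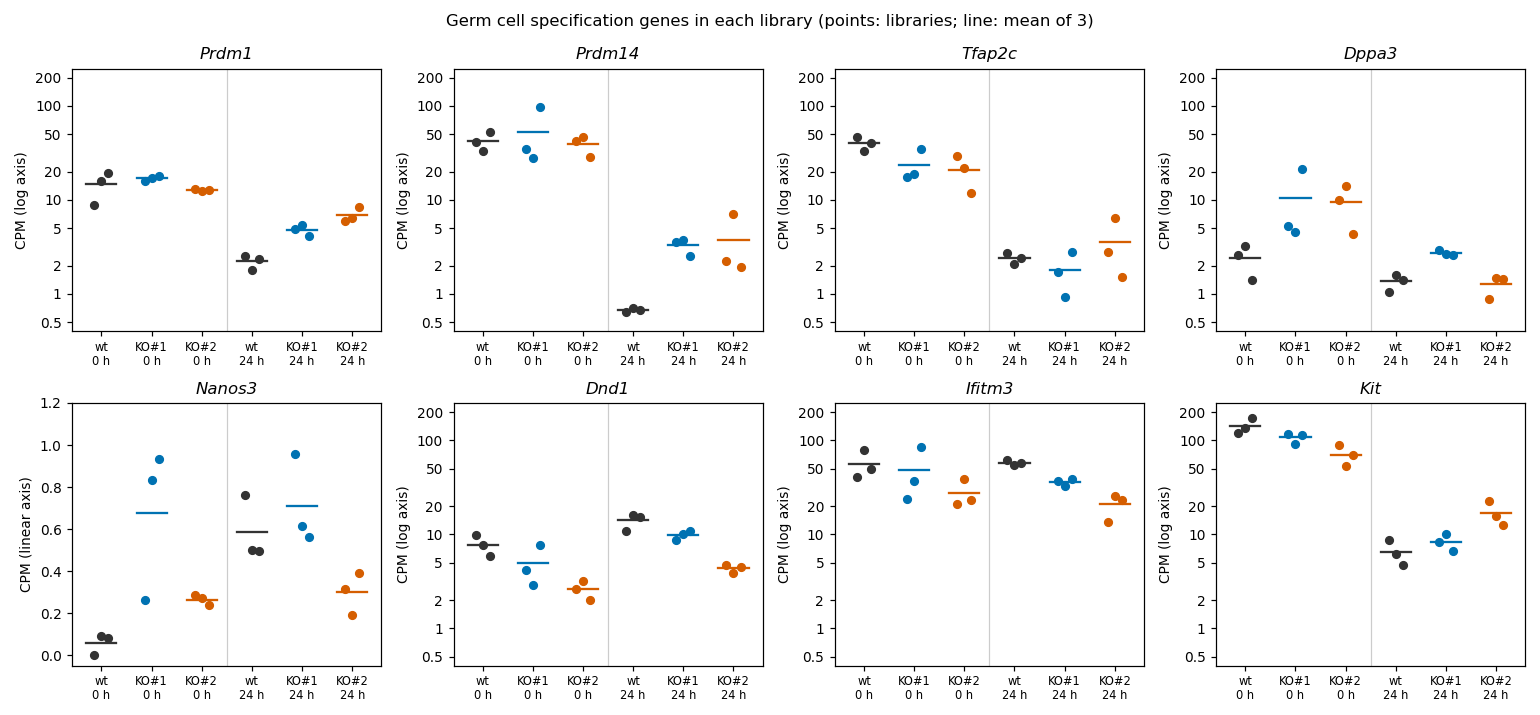
CPM of the 8 germ cell genes in each of the 18 libraries (points) with the mean of 3 replicates (lines), on log axes except for Nanos3, which is on a linear axis. Prdm1, Prdm14, Tfap2c and Kit are lower at 24 h than at 0 h in every line without overlap, Prdm14 falls to 0.645 to 0.701 CPM in wt only, and Ifitm3 stays between 13.6 and 86 CPM.

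The induction of EpiLCs was first compared within each line (24 h against 0 h). In wt cells 4 of the 7 genes that passed the filter on low counts fell (Prdm1, Prdm14, Tfap2c and Kit), Dnd1 rose, and Dppa3 and Ifitm3 did not pass the test. Of all 16619 tested genes, 50.7% were called in wt, 26.0% higher and 24.7% lower (edgeR's quasi-likelihood test, Benjamini-Hochberg adjusted p under 0.05). In KO#1, Prdm1, Prdm14, Tfap2c, Dppa3 and Kit fell and Dnd1 rose, against 40.8% of all genes called (20.1% higher, 20.6% lower). In the KO#2-labelled libraries the same 5 genes fell and none of the 7 rose, against 26.0% called (12.7% higher, 13.3% lower). The median log2 fold change of the 7 genes was -2.74 in wt, -1.97 in KO#1 and -2.06 in the KO#2-labelled libraries, while the median over all tested genes was 0.03, 0 and -0.03. In the same comparisons 6, 6 and 3 of the 8 fibroblast genes fell, while Dcn rose in wt, from 0 in every library to 8.33, 4.61 and 4.45 CPM, and in KO#1 (log2 2.21, adjusted p = 0.0255). The part of the feeder cells in the members' changes was not tested.

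The clones labelled KO were then compared with wt cells at each time point. These comparisons use the same wt libraries for both clones, so they are not independent of each other. At 0 h only Dppa3 was higher in KO#1 (6.67% of all genes called, 3.99% higher and 2.68% lower). In the KO#2-labelled libraries at 0 h Dppa3 was higher and Dnd1, Ifitm3 and Kit were lower (38.1% called, 21.5% higher and 16.6% lower). At 24 h Prdm1 and Prdm14 were higher in KO#1 (9.86% called, 6.25% higher and 3.61% lower). In the KO#2-labelled libraries at 24 h Prdm1, Prdm14 and Kit were higher and Dnd1 and Ifitm3 lower (37.3% called, 21.3% higher and 16.0% lower). Over the 7 genes the median log2 fold changes were -0.20 and -0.92 at 0 h and 0.35 and 0.56 at 24 h for KO#1 and the KO#2-labelled libraries, against 0.02, 0.10, -0.02 and 0.20 over all genes. Fibroblast genes were higher in the KO#2-labelled libraries for 4 of 8 genes at 0 h and 6 of 8 at 24 h, none lower, while in KO#1 none passed at 0 h and 1 was higher and 1 lower at 24 h. All 4 tested primitive endoderm genes were higher in the KO#2-labelled libraries than in wt at 24 h (median log2 2.06), with 1 higher in KO#1. Of the 2 tested mesendoderm genes, Eomes was higher at 24 h in KO#1 (2.26, adjusted p = 0.000362) and the KO#2-labelled libraries (2.45, adjusted p = 7.39e-05), and its response differed from that of wt in both (3.00 and 4.33, adjusted p = 0.0139 and 0.000437). The other, Gsc, did not pass against wt at 24 h (0.79 and 0.66, adjusted p = 0.836 and 0.72) or in its response (-0.80 and 1.00, adjusted p = 0.937 and 0.73), and it fell in all 3 lines (-3.68, -4.49 and -2.69, adjusted p = 0.0155, 0.00209 and 0.0417). Of 6 pluripotent genes, 2 were higher and 0 lower than in wt in KO#1 at 24 h. In the KO#2-labelled libraries of 24 h 3 were higher and 1 lower. Of 4 formative epiblast genes, 0 were higher and 1 was lower in each of these 24 h comparisons. The part of these cell types and states in the members' differences was not tested.

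**Figure D2:**
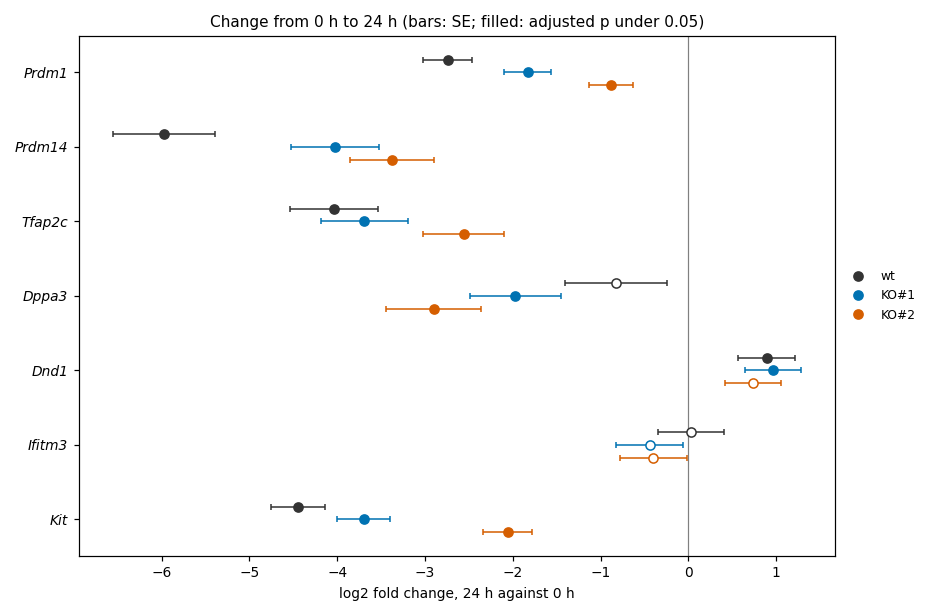
Log2 fold change from 0 h to 24 h (x axis) of the 7 tested genes in wt, KO#1 and the KO#2-labelled libraries; bars are standard errors and filled points passed an adjusted p of 0.05. Prdm1, Prdm14, Tfap2c and Kit lie left of 0 in all 3 lines and farthest left in wt, where Prdm14 reaches -5.97.

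Prdm14 had the largest fold change during induction of the 7 genes in wt and in the KO#2-labelled libraries, and in KO#1 with all libraries included. Its level in wt was 41.7, 33.3 and 53.0 CPM at 0 h and 0.645, 0.701 and 0.679 CPM at 24 h (7 to 11 counts per library). The 0 h and 24 h libraries did not overlap, and the fall was 62.7-fold (log2 fold change -5.97, SE 0.58, adjusted p = 8.67e-07). KO#1 had 35.1, 28.2 and 96.3 CPM at 0 h and 3.53, 3.78 and 2.55 CPM at 24 h, a log2 fold change of -4.03 (SE 0.50, adjusted p = 1.85e-05), or -3.27 without replicate 3 of 0 h, where Kit had the larger change (-3.65). Without replicate 3 of 24 h Tfap2c had the larger change in KO#1 (-4.17, against -3.89 for Prdm14). The KO#2-labelled libraries had 42.3, 46.5 and 28.6 CPM and then 2.25, 7.04 and 1.91 CPM, a log2 fold change of -3.38 (SE 0.48, adjusted p = 8.84e-05), or -4.23 without replicate 2 of 24 h. All 6 KO-labelled libraries of 24 h lay above the 3 wt libraries of 24 h, whereas at 0 h the groups overlapped. At 24 h Prdm14 was 4.81-fold higher in KO#1 (log2 2.26, SE 0.57, adjusted p = 0.0152) and 5.54-fold higher in the KO#2-labelled libraries (log2 2.47, SE 0.56, adjusted p = 0.00237) than in wt. The value of the KO#2-labelled libraries was 1.62 (adjusted p = 0.0226) without their replicate 2 of 24 h, the highest of the group, and the call in KO#1 was lost without wt replicate 1 of 24 h (log2 2.24, adjusted p = 0.0648). At 0 h the log2 differences from wt were 0.33 (95% interval -0.59 to 1.24) and -0.12 (-1.04 to 0.79). Without KO#1 replicate 3 of 0 h the former became -0.43.

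Prdm1, which represses the somatic programme in germ cell precursors, stood at 8.86, 15.9 and 19.5 CPM in wt at 0 h and at 2.52, 1.80 and 2.35 CPM at 24 h. It fell 6.68-fold there (log2 -2.74, SE 0.28, adjusted p = 1.43e-06). In KO#1 it went from 16.0, 17.3 and 17.9 CPM to 4.92, 5.42 and 4.17 CPM, 3.54-fold lower (log2 -1.83, SE 0.27, adjusted p = 7.99e-05). The KO#2-labelled libraries kept the most Prdm1 RNA, with 13.1, 12.4 and 12.6 CPM at 0 h and 5.96, 6.39 and 8.38 CPM at 24 h. The fall was 1.84-fold (log2 -0.88, SE 0.25, adjusted p = 0.0166), and this call was lost without replicate 1 of 0 h or replicates 1 or 2 of 24 h of that group (adjusted p = 0.0557, 0.0621 and 0.0578) and without the filter on low counts (-0.86, adjusted p = 0.0571). At 24 h the wt, KO#1 and KO#2-labelled libraries did not overlap. Against wt Prdm1 was 2.14-fold higher in KO#1 (log2 1.10, SE 0.28, adjusted p = 0.0152) and 3.07-fold higher in the KO#2-labelled libraries (log2 1.62, SE 0.27, adjusted p = 0.000242). The call in KO#1 was lost without wt replicate 2 or KO#1 replicate 2 of 24 h (adjusted p = 0.0708 and 0.0544). At 0 h the log2 differences from wt were 0.18 (95% interval -0.36 to 0.73) and -0.24 (-0.78 to 0.29).

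Tfap2c fell in all 3 lines and did not pass the main test between wt and KO#1 or the KO#2-labelled libraries. It was at 46.6, 33.0 and 40.7 CPM in wt at 0 h and at 2.70, 2.10 and 2.41 CPM at 24 h (16.5-fold lower, log2 -4.04, SE 0.50, adjusted p = 8.06e-06). In KO#1 it was at 17.6, 19.0 and 34.8 CPM and then 1.69, 0.920 and 2.80 CPM (12.9-fold lower, log2 -3.69, SE 0.50, adjusted p = 3.89e-05). KO#2-labelled libraries had 29.5, 21.7 and 11.9 CPM and then 2.77, 6.35 and 1.52 CPM (5.90-fold lower, log2 -2.56, SE 0.46, adjusted p = 0.000591), and without replicate 2 of 24 h the log2 value was -3.30. At 0 h every KO#2-labelled library lay below every wt library, yet the difference missed the threshold (log2 -0.92, SE 0.43, adjusted p = 0.0966), which it passed without the filter on low counts (-0.88, adjusted p = 0.0276) and with only the groups compared (-0.91, adjusted p = 0.0417). At 24 h the log2 differences from wt were -0.38 (95% interval -1.43 to 0.67) in KO#1 and 0.56 (-0.43 to 1.54) in the KO#2-labelled libraries, and the groups overlapped. With library sizes alone the latter was 1.62 (adjusted p = 0.00944).

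Dppa3 was higher in KO#1 and in the KO#2-labelled libraries than in wt before induction, and at 24 h it did not pass the main test in either. The difference of its response from that of wt did not pass the interaction test in KO#1 (-1.15, adjusted p = 0.675) or the KO#2-labelled libraries (-2.08, adjusted p = 0.134), where it passed without the filter on low counts (adjusted p = 0.0177). In wt iPSCs it was at 2.62, 3.21 and 1.42 CPM (8 to 35 counts), in KO#1 at 5.34, 4.59 and 21.4 CPM and in the KO#2-labelled libraries at 10.1, 14.1 and 4.36 CPM. All 6 KO-labelled libraries lay above the 3 wt libraries, although the values spread widely within KO#1 and within the KO#2-labelled group. Dppa3 was 4.50-fold higher in KO#1 (log2 2.17, SE 0.55, adjusted p = 0.0216) and 3.99-fold higher in the KO#2-labelled libraries (log2 2.00, SE 0.55, adjusted p = 0.00948). KO#1 replicate 3 carried much of the former value, since without it the log2 difference was 1.06 (adjusted p = 0.243), and the call was also lost without wt replicate 1 (2.22, adjusted p = 0.0529) or 3 (1.85, adjusted p = 0.133). KO#1 replicate 3 had the lowest fibroblast sum of its group, 183 CPM against 514 and 378 CPM. It also had the largest total (14613617 counts) and the highest share of protein-coding counts (77.4%) of its group. The part of any of these was not tested. For the KO#2-labelled libraries the call was lost without wt replicate 3 (1.68, adjusted p = 0.0549).

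At 24 h Dppa3 was low in every line. It was at 1.06, 1.60 and 1.42 CPM in wt, 2.94, 2.66 and 2.61 CPM in KO#1 and 0.888, 1.47 and 1.43 CPM in the KO#2-labelled libraries. The KO#1 libraries lay above those of wt without overlap, but the difference did not pass the test (log2 1.02, 95% interval -0.14 to 2.18, adjusted p = 0.30). From 0 h to 24 h Dppa3 fell 7.45-fold in the KO#2-labelled libraries (log2 -2.90, SE 0.54, adjusted p = 0.000794) and 3.91-fold in KO#1 (log2 -1.97, SE 0.52, adjusted p = 0.00666), the latter losing its call without KO#1 replicate 3 of 0 h (-0.86, adjusted p = 0.133). In wt the change was -0.82 (95% interval -2.03 to 0.40, adjusted p = 0.246).

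**Figure D3:**
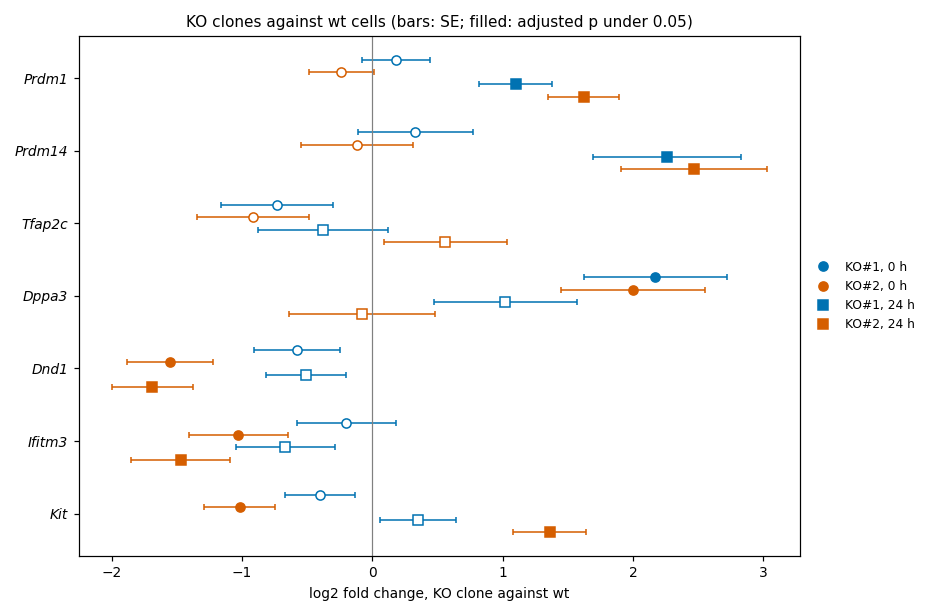
Log2 fold change of each clone labelled KO against wt (x axis) at 0 h (circles) and 24 h (squares) for the 7 tested genes; bars are standard errors and filled points passed an adjusted p of 0.05. Prdm14 and Prdm1 are filled to the right at 24 h only, Dppa3 at 0 h only, and Dnd1 and Ifitm3 are filled to the left for the KO#2-labelled libraries at both times.

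Dnd1 (chr18:36763671-36766214, minus strand) encodes an RNA-binding partner of Nanos proteins and was the only one of the 7 genes that rose during induction. Its exons overlap those of Wdr55 on the opposite strand, and 2.66% of its 75-base words are also found in Wdr55. Reads of these stretches cannot be assigned with certainty because the use of strand in the counting is not given in the sources used here. In wt it went from 9.84, 7.62 and 5.92 CPM to 10.9, 16.2 and 15.3 CPM (1.85-fold, log2 0.89, SE 0.32, adjusted p = 0.0263), and in KO#1 from 4.17, 2.92 and 7.65 CPM to 8.67, 10.2 and 10.9 CPM (1.95-fold, log2 0.96, SE 0.32, adjusted p = 0.0225). Neither pair of groups overlapped, but each call was lost in 4 of 6 fits that left out 1 library, with adjusted p-values of up to 0.124 in wt and 0.106 in KO#1. The wt call was lost without replicates 2 or 3 of either time (adjusted p = 0.0621 and 0.124 at 0 h, 0.104 and 0.0861 at 24 h), and the KO#1 call without replicates 1 or 2 of 0 h (0.0936 and 0.106) or 2 or 3 of 24 h (0.0631 and 0.0613). In KO#2-labelled cells Dnd1 was at 2.60, 3.19 and 2.01 CPM and then at 4.70, 3.87 and 4.52 CPM, a change of 0.74 that missed the threshold (SE 0.32, adjusted p = 0.0907).

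These libraries had the least Dnd1 at both times. Against wt Dnd1 was 2.92-fold lower at 0 h (log2 -1.55, SE 0.33, adjusted p = 0.00194) and 3.23-fold lower at 24 h (log2 -1.69, SE 0.31, adjusted p = 0.000512), without overlap. In KO#1 the log2 differences from wt were -0.58 at 0 h (95% interval -1.26 to 0.10) and -0.51 at 24 h (-1.15 to 0.13). Between the clones, Dnd1 was lower in the KO#2-labelled libraries at 0 h (log2 -0.97, SE 0.32, adjusted p = 0.0348) and at 24 h (log2 -1.19, SE 0.31, adjusted p = 0.00707), the former with overlapping libraries and a value of -0.46 (adjusted p = 0.315) without KO#1 replicate 3. That call at 0 h was also lost without replicates 1 or 3 of the KO#2-labelled libraries (adjusted p = 0.0906 and 0.123), without the filter on low counts (-0.94, adjusted p = 0.0653), with at least 10 counts in every library (-0.78, adjusted p = 0.0602) and with only the groups compared (-0.98, adjusted p = 0.121). The overlapping gene Wdr55 had log2 fold changes of 1.81, 1.15 and 1.30 during induction in the 3 lines (adjusted p = 5.23e-05, 0.00271 and 0.0018) and of -0.67 and -1.18 between the KO#2-labelled libraries and wt at 0 h and 24 h (adjusted p = 0.0564 and 0.00227). The part of Wdr55 reads in the Dnd1 counts was not tested.

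Nanos3, which protects migrating germ cells from death, was near the limit of detection. It had 0, 1 and 1 counts in wt at 0 h, 2, 4 and 16 in KO#1, and 7, 6 and 5 in the KO#2-labelled libraries. At 24 h the counts were 13, 5 and 8, 13, 6 and 9, and 6, 5 and 9, and no library exceeded 0.955 CPM. The 0 counts of wt replicate 1 allow a level of up to 0.984 CPM (3 counts, for counting error only). Nanos3 did not pass the filter on low counts and was left out of the main test. Without the filter it passed in wt at 24 h against 0 h (adjusted p = 0.0261), where the values of 0 h rest on at most 1 count, and it did not pass in KO#1 or the KO#2-labelled libraries against wt at 0 h (adjusted p = 0.0669 and 0.293) or at 24 h (1 and 0.414). With protein-coding genes only, and without KO#1 replicate 1 of 0 h, Nanos3 entered the test and was called for KO#1 against wt at 0 h.

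Ifitm3 did not pass the test for a change over time in any line. Its level in wt was 41.0, 78.3 and 49.2 CPM at 0 h and 61.7, 54.3 and 57.0 CPM at 24 h (log2 0.03, 95% interval -0.76 to 0.82), in KO#1 23.6, 37.0 and 86.0 CPM and then 37.2, 32.3 and 39.0 CPM (log2 -0.44, -1.24 to 0.35). The KO#2-labelled libraries had 20.8, 38.6 and 23.4 CPM and then 13.6, 25.8 and 23.2 CPM (log2 -0.40, -1.19 to 0.39). All 3 pairs of groups overlapped, and the replicates of 0 h were more spread than those of 24 h in wt and KO#1. The KO#2-labelled libraries lay below wt at both times without overlap, 2.05-fold lower at 0 h (log2 -1.03, SE 0.38, adjusted p = 0.0402) and 2.76-fold lower at 24 h (log2 -1.47, SE 0.38, adjusted p = 0.00643). At 0 h this call was lost without wt replicates 2 (log2 -0.71, adjusted p = 0.183) or 3 (adjusted p = 0.0612), or without replicates 1 or 3 of the KO#2-labelled libraries (adjusted p = 0.139 and 0.118), and with at least 10 counts in every library (-0.85, adjusted p = 0.0789). The KO#1 libraries of 24 h also lay below those of wt without overlap, with a log2 difference of -0.67 that did not pass the test (95% interval -1.46 to 0.12, adjusted p = 0.324).

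Kit had the highest mean CPM of the 8 genes at 0 h in all 3 lines, though not per kilobase. In wt it fell from 120, 135 and 174 CPM to 8.62, 6.21 and 4.76 CPM, 21.9-fold (log2 -4.45, SE 0.31, adjusted p = 4.8e-08). In KO#1 it fell from 118, 91.9 and 115 CPM to 8.30, 10.2 and 6.60 CPM (13.0-fold, log2 -3.70, SE 0.30, adjusted p = 4.15e-07), and in the KO#2-labelled libraries from 88.3, 53.5 and 69.4 CPM to 22.4, 15.6 and 12.5 CPM (4.18-fold, log2 -2.06, SE 0.28, adjusted p = 5.47e-05). The KO#2-labelled libraries were thus the lowest at 0 h and the highest at 24 h. Against wt Kit was 2.03-fold lower there at 0 h (log2 -1.02, SE 0.27, adjusted p = 0.0079) and 2.57-fold higher at 24 h (log2 1.36, SE 0.28, adjusted p = 0.00127), without overlap at either time. In KO#1 the log2 differences from wt were -0.40 (95% interval -0.97 to 0.16) and 0.35 (-0.25 to 0.95). At 24 h Kit was also higher in the KO#2-labelled libraries than in KO#1 (log2 1.01, SE 0.28, adjusted p = 0.0095). This call was lost without replicate 1 of the KO#2-labelled libraries (0.76, adjusted p = 0.0627). That replicate had the highest fibroblast sum and the smallest total of its group (13448569 counts). The part of either was not tested.

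Whether the change at 24 h differed between the clones labelled KO and wt was tested as an interaction. In the KO#2-labelled libraries the response differed from that of wt for Kit, by 2.39 on the log2 scale (SE 0.39, adjusted p = 0.007), and for Prdm1, by 1.86 (SE 0.37, adjusted p = 0.0185), against 1.47% of all tested genes called in this comparison (0.951% higher, 0.517% lower). Both had fallen less than in wt. Prdm14, with a difference of 2.59 (SE 0.71, adjusted p = 0.0689), Tfap2c (1.48, adjusted p = 0.177) and Dppa3 (-2.08, adjusted p = 0.134) missed the threshold, and Dnd1 (-0.15) and Ifitm3 (-0.43) lay near 0. In this comparison 5 of the 7 genes had an unadjusted p under 0.05, as had 23.6% of all tested genes, and DESeq2 called 3, adding Prdm14, against 8.48% of all genes. Without the filter on low counts Prdm14 (2.59, adjusted p = 1.64e-05), Tfap2c (1.47, adjusted p = 0.0317) and Dppa3 also passed, against 5.90% of all genes. Prdm14 passed as well with library sizes alone (3.20, adjusted p = 0.0147), with protein-coding genes only (2.68, adjusted p = 0.0483) and without replicate 3 of 24 h of the KO#2-labelled libraries (2.92, adjusted p = 0.0303). The Prdm1 call was lost without wt replicate 3 of 0 h (1.62, adjusted p = 0.0727), wt replicate 2 of 24 h (1.77, adjusted p = 0.0689) or replicate 2 of 0 h of the KO#2-labelled libraries (1.85, adjusted p = 0.0611). For KO#1 the count was 0 of 7 with edgeR and 0 with DESeq2, against 0.391% of all genes called with edgeR (0.253% higher, 0.138% lower) and 1.66% with DESeq2, while without the filter Prdm14 passed (1.93, adjusted p = 0.0133, against 1.06% of all genes). Prdm14 (1.94, adjusted p = 0.323) and Prdm1 (0.92, adjusted p = 0.392) had an unadjusted p under 0.05, as had 10.1% of all tested genes. Between the clones, 1 of 7 genes (Dnd1) was called at 0 h and 2 (Dnd1 and Kit) at 24 h, against 26.4% (15.1% higher, 11.3% lower) and 35.4% (19.3% higher, 16.1% lower) of all genes.

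Libraries that stood apart were left out together as an alternative added after seeing the data. These were wt replicate 1 of 0 h, which had the smallest total, KO#1 replicate 3 of 0 h and replicate 1 of 24 h of the KO#2-labelled libraries. Without them 6, 5 and 5 of the 8 genes were called during induction in wt, KO#1 and the KO#2-labelled libraries, against 46%, 44.3% and 29.9% of all genes. Against wt the counts were 0 and 4 at 0 h (4.74% and 31% of all genes) and 2 and 5 at 24 h (12.2% and 32.2%) for KO#1 and the KO#2-labelled libraries. The KO#1 groups lost Dppa3 at 0 h (log2 1.11, adjusted p = 0.251) and its fall during induction (-0.86, adjusted p = 0.132), and wt gained Nanos3. Prdm14 then passed the interaction test in the KO#2-labelled libraries (2.87, adjusted p = 0.044, against 0.706% of all genes).

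Scaling by library sizes alone, which moved the median of all genes by -0.61 and -0.79 in wt and KO#1 during induction and by 0.45 and 1.04 for the KO#2-labelled libraries against wt at 0 h and 24 h, ended several calls without turning their direction. These were the rise of Dnd1 in wt and KO#1 (log2 0.26 and 0.17, adjusted p = 0.601 and 0.748), the lower Ifitm3 and Kit in the KO#2-labelled libraries at 0 h (-0.60 and -0.57, adjusted p = 0.296 and 0.199) and the lower Dnd1 and Ifitm3 there at 24 h (-0.63 and -0.43, adjusted p = 0.146 and 0.378). The fall of Prdm1 in the KO#2-labelled libraries (-0.92, adjusted p = 0.0675), its higher level in KO#1 at 24 h (1.02, adjusted p = 0.114) and the lower Dnd1 between the clones (-0.66 and -0.12 at 0 h and 24 h, adjusted p = 0.249 and 0.799) also missed the threshold with this scaling. With only the groups compared in the fit, Dppa3 in KO#1 at 0 h (2.15, adjusted p = 0.108) and the rise of Dnd1 in KO#1 (1.00, adjusted p = 0.0628) were not called, while Dppa3 and Ifitm3 in KO#1 at 24 h were (1.05 and -0.65, adjusted p = 0.0462 and 0.0328). Of the 7 tested genes, those that gained a call during induction were Dppa3 in wt and Ifitm3 in KO#1 with library sizes alone (-1.46 and -1.23, adjusted p = 0.04 and 0.0218) and Dnd1 in the KO#2-labelled libraries with DESeq2 (0.77, adjusted p = 0.0488). Between the clones at 24 h library sizes alone gained Prdm1, Prdm14 and Tfap2c (1.62, 1.35 and 1.97, adjusted p = 0.000645, 0.0192 and 0.0029). There the fit without the filter gained Tfap2c and Ifitm3 (0.97 and -0.76, adjusted p = 0.0318 and 0.0443), that with only the groups compared Dppa3 and Ifitm3 (-1.17 and -0.85, adjusted p = 0.0363 and 0.039), and that with at least 10 counts Prdm1 (0.63, adjusted p = 0.0484). Prdm14, Tfap2c and Kit kept their call during induction in all 3 lines in every alternative in which they were tested.

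The specification genes were also set against the fibroblast genes inside groups. Over the deviations of the 18 libraries from their group means, the correlation with the fibroblast score was -0.64 for Prdm14, -0.54 for Ifitm3, -0.52 for Tfap2c and for Dppa3, -0.30 for Dnd1, -0.29 for Prdm1 and 0.10 for Kit. These are descriptions over libraries that also differ in depth and in the share of protein-coding counts. At 0 h KO#1 replicate 3 combined the lowest fibroblast sum of its group with the highest Prdm14, Tfap2c, Dppa3 and Ifitm3, and replicate 3 of the KO#2-labelled libraries, with the highest fibroblast sum of all (898 CPM), had the lowest Tfap2c of all 0 h libraries and the lowest Prdm14 and Dppa3 of its group. The order was not the same throughout. In wt the lowest Dppa3 (1.42 CPM) came with the lowest fibroblast sum (110 CPM) and the highest Tfap2c (46.6 CPM) with the highest sum (390 CPM), and among the KO#2-labelled libraries the lowest Ifitm3 (20.8 CPM) was in replicate 1, at a sum of 360 CPM.

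**Figure D4:**
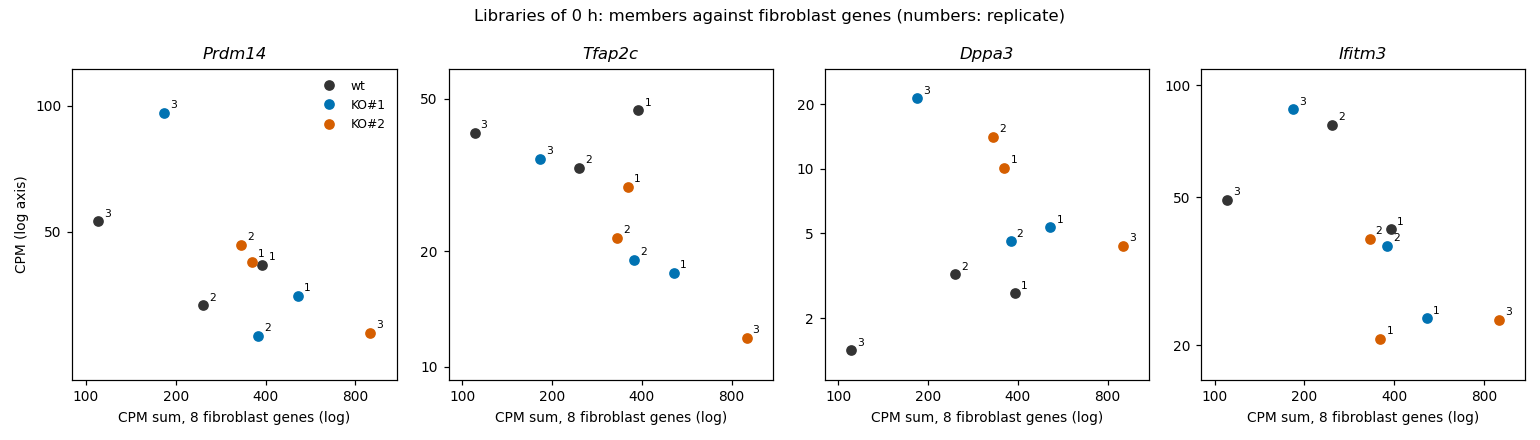
CPM of Prdm14, Tfap2c, Dppa3 and Ifitm3 against the summed CPM of 8 fibroblast genes in the 0 h libraries, both on log axes, with replicate numbers beside the points. KO#1 replicate 3, at a fibroblast sum of 183 CPM, has the highest Prdm14, Dppa3 and Ifitm3 of all 0 h libraries.

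Prdm14, Prdm1, Tfap2c and Kit were compared across the libraries. Over the 18 libraries the log2 CPM of Prdm14 correlated with that of Kit (r = 0.94), Prdm1 (0.93) and Tfap2c (0.91), and Kit with Tfap2c (0.93) and Prdm1 (0.92), while Prdm1 with Tfap2c had 0.79. Dnd1 ran against Prdm1 (-0.69) and with Ifitm3 (0.60), and Ifitm3 had values near 0 with Kit (0.03) and Prdm14 (0.04). The libraries share the split by time, which separates the high from the low values of these genes. The genes most like each member by this measure were Aqp3 (0.986), Fbxl2 (0.98) and Nanog (0.977) for Prdm14, Klf4 (0.982), Frmd4a (0.981) and Ncam1 (0.976) for Kit, and Pvr (0.955), Cdkn1b (0.952) and Klf15 (0.948) for Prdm1. Tfap2c was most like Hes1 (0.966), Btg1 (0.962) and Fam76a (0.96), Dnd1 most like Zdhhc12 (0.955), Nudt8 (0.941) and Uqcc2 (0.936). The closest genes were less alike for Ifitm3 (Gstm2 0.895, Eif1b 0.875, Aamdc 0.872) and Dppa3 (Gm12169 0.892, Cd9 0.882, Eva1c 0.877).

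Genes that work with the 8 were examined as lists. Their calls come from the main fit, and whether they held in the alternatives was not tested. Among 9 co-factors of germ cell fate and its repressor, 3 rose and 5 fell in wt during induction, 2 and 4 in KO#1, and 3 and 3 in the KO#2-labelled libraries. Of all tested genes 26.0% rose and 24.7% fell in wt, 20.1% and 20.6% in KO#1, and 12.7% and 13.3% in the KO#2-labelled libraries. Nanog, a pluripotency factor also used in germ cells, fell by 4.63, 3.29 and 2.80 on the log2 scale in wt, KO#1 and the KO#2-labelled libraries (adjusted p = 4.45e-06, 0.000107 and 0.000502). It was at 27.5, 19.0 and 12.0 CPM in wt at 24 h and higher in KO#1 (113, 56.5 and 36.8 CPM, log2 1.82, adjusted p = 0.0187) and among the KO#2-labelled libraries (60.8, 106 and 24.6 CPM, log2 1.71, adjusted p = 0.00926), where 1 library lay among those of wt. Alkaline phosphatase Alpl, a classical stain for germ cells, fell by 3.07, 2.40 and 2.03 (adjusted p = 4.3e-07, 6.88e-06 and 4.27e-05). It was called lower in the KO#2-labelled libraries than in wt at 0 h (log2 -0.78). At 24 h Alpl averaged 40.5 ± 4.09 CPM in wt, 75 ± 11.9 in KO#1 and 48 ± 12.7 in the KO#2-labelled libraries. The RNA-binding protein Lin28a rose by 2.68, 3.77 and 4.37 (adjusted p = 0.000276, 4.22e-05 and 1.82e-05) and was lower in KO#1 and the KO#2-labelled libraries at 0 h (log2 -1.97 and -2.33, adjusted p = 0.0174 and 0.00174).

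Otx2, which restrains entry into the germline, rose in all 3 lines by 3.46, 2.20 and 1.91 on the log2 scale (adjusted p = 6.41e-05, 0.0019 and 0.00677). It was already higher in both clones labelled KO at 0 h, at 6.26, 8.77 and 32.7 CPM in KO#1 and 16.1, 10.3 and 14.8 CPM in the KO#2-labelled libraries, against 1.31, 4.59 and 4.75 CPM in wt. The log2 differences were 2.07 and 1.82 (adjusted p = 0.0207 and 0.0115), and no library labelled KO overlapped with wt. Whether the KO#1 call holds without replicate 3 (32.7 CPM) was not tested. At 24 h the log2 differences were 0.81 and 0.26 and did not pass the test (adjusted p = 0.333 and 0.677).

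Of 14 genes of BMP and WNT signalling 11 were tested, and 3 rose and 7 fell in wt during induction, 3 and 5 in KO#1, and 1 and 2 in the KO#2-labelled libraries, against 50.7%, 40.8% and 26.0% of all genes called in either direction. The receptor Bmpr2 fell by 1.61, 1.66 and 1.01 on the log2 scale in the 3 lines (adjusted p = 0.00121, 0.00142 and 0.0291) and was higher in the KO#2-labelled libraries than in wt at 0 h and 24 h (1.29 and 1.89, adjusted p = 0.0072 and 0.000482). The ligand Bmp8b rose by 1.62, 2.82 and 1.60 (adjusted p = 0.025, 0.000459 and 0.0116) and at 24 h was higher than in wt in KO#1 (log2 1.78, adjusted p = 0.015) and in the KO#2-labelled libraries (log2 1.47, adjusted p = 0.015). Id1, a target of BMP signals, rose in wt and KO#1 (2.09 and 1.85, adjusted p = 0.00212 and 0.00429) and was lower in the KO#2-labelled libraries than in wt at 24 h (-1.36, adjusted p = 0.0241). Smad5, which carries the signal to the nucleus, fell in wt and KO#1 (-0.71 and -0.74, adjusted p = 0.00647 and 0.00708) and was higher in the KO#2-labelled libraries at 24 h (0.81, adjusted p = 0.0036). Bmp4, chosen after its values were seen, was at 1.17, 0.601 and 1.24 CPM in wt at 24 h, 11.5, 11.7 and 13.1 CPM in KO#1 and 7.84, 12.7 and 2.39 CPM in the KO#2-labelled libraries. It was higher than in wt in both (log2 3.54 and 2.88, adjusted p = 0.000476 and 0.000778), without overlap.

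The ligand of Kit, Kitl, was higher in the KO#2-labelled libraries than in wt at 0 h (3.78, 3.73 and 1.63 CPM against 0, 0.551 and 0.917 CPM, log2 2.31, adjusted p = 0.00569) and at 24 h (4.08, 5.26 and 4.65 against 1.53, 0.701 and 0.927 CPM, log2 2.11, adjusted p = 0.0039). In these libraries Kit itself was lower at 0 h and higher at 24 h. The Kitl values of wt at 0 h rest on 0 to 11 counts per library. Fibroblast genes were also higher than in wt there, 4 of 8 at 0 h and 6 of 8 at 24 h (38.1% and 37.3% of all genes called). Which cells held the RNA of Kitl or of Kit cannot be told in bulk RNA. Of the guidance pair, Cxcl12 rose in wt (log2 1.55, adjusted p = 0.0448) and was lower in KO#1 than in wt at 24 h (-2.34, adjusted p = 0.02), and its receptor Cxcr4 was called in none of the 11 comparisons.

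Family relatives of the 8 genes were mostly low, and 4 of 8 were tested. Tfap2a, the AP-2 factor of the surface ectoderm and neural crest, fell in wt and KO#1 (log2 -4.31 and -3.92, adjusted p = 0.000567 and 0.000339), from 2.69 ± 1.67 to 0.115 ± 0.0646 CPM in wt, and was higher in the KO#2-labelled libraries at 24 h (log2 2.42, adjusted p = 0.037). In wt at 24 h its values rest on 1 to 3 counts per library. The KO#2-labelled libraries of 24 h ran from 0.261 to 1.41 CPM, with a median of 0.348 CPM. Ifitm2 was lower than in wt in the KO#2-labelled libraries at 24 h, as Ifitm3 was (log2 -1.19, adjusted p = 0.0122). With library sizes alone the Ifitm3 call was lost there (-0.43, adjusted p = 0.378), and for Ifitm2 this was not tested. Ifitm1 fell in wt (log2 -1.67, adjusted p = 0.0187), and Nanos1 was lower in the KO#2-labelled libraries at 0 h (log2 -1.09, adjusted p = 0.0119).

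Genes of later germ cells were examined in the same way. Of 7 genes, 6 rose in wt, 2 in KO#1 and 6 in the KO#2-labelled libraries during induction, and none fell, against 26.0%, 20.1% and 12.7% of all genes higher, with medians of 1.57, 0.62 and 1.73 on the log2 scale. The helicase Ddx4 (Vasa) rose by 2.44, 2.12 and 1.73 (adjusted p = 0.0011, 0.0068 and 0.0133). The piRNA pathway gene Mael rose by 3.20 in wt and 2.32 in the KO#2-labelled libraries (adjusted p = 6.93e-05 and 0.0009), with 0.50 in KO#1 (adjusted p = 0.378). Sycp1, a part of the synaptonemal complex, rose by 1.57 and 1.77 in wt and the KO#2-labelled libraries (adjusted p = 0.0318 and 0.0232) and was higher in the latter than in wt at 24 h (log2 1.51, adjusted p = 0.0363). Piwil2, which binds piRNAs, was higher than in wt in KO#1 and the KO#2-labelled libraries at 0 h (log2 2.02 and 1.79, adjusted p = 8.04e-05 and 0.000131) and at 24 h (1.27 and 1.12, adjusted p = 0.00287 and 0.00236). Its mean was 15.2 ± 2.51 CPM in wt, 62.3 ± 13.0 in KO#1 and 52.9 ± 6.57 in the KO#2-labelled libraries at 0 h.

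**Figure D5:**
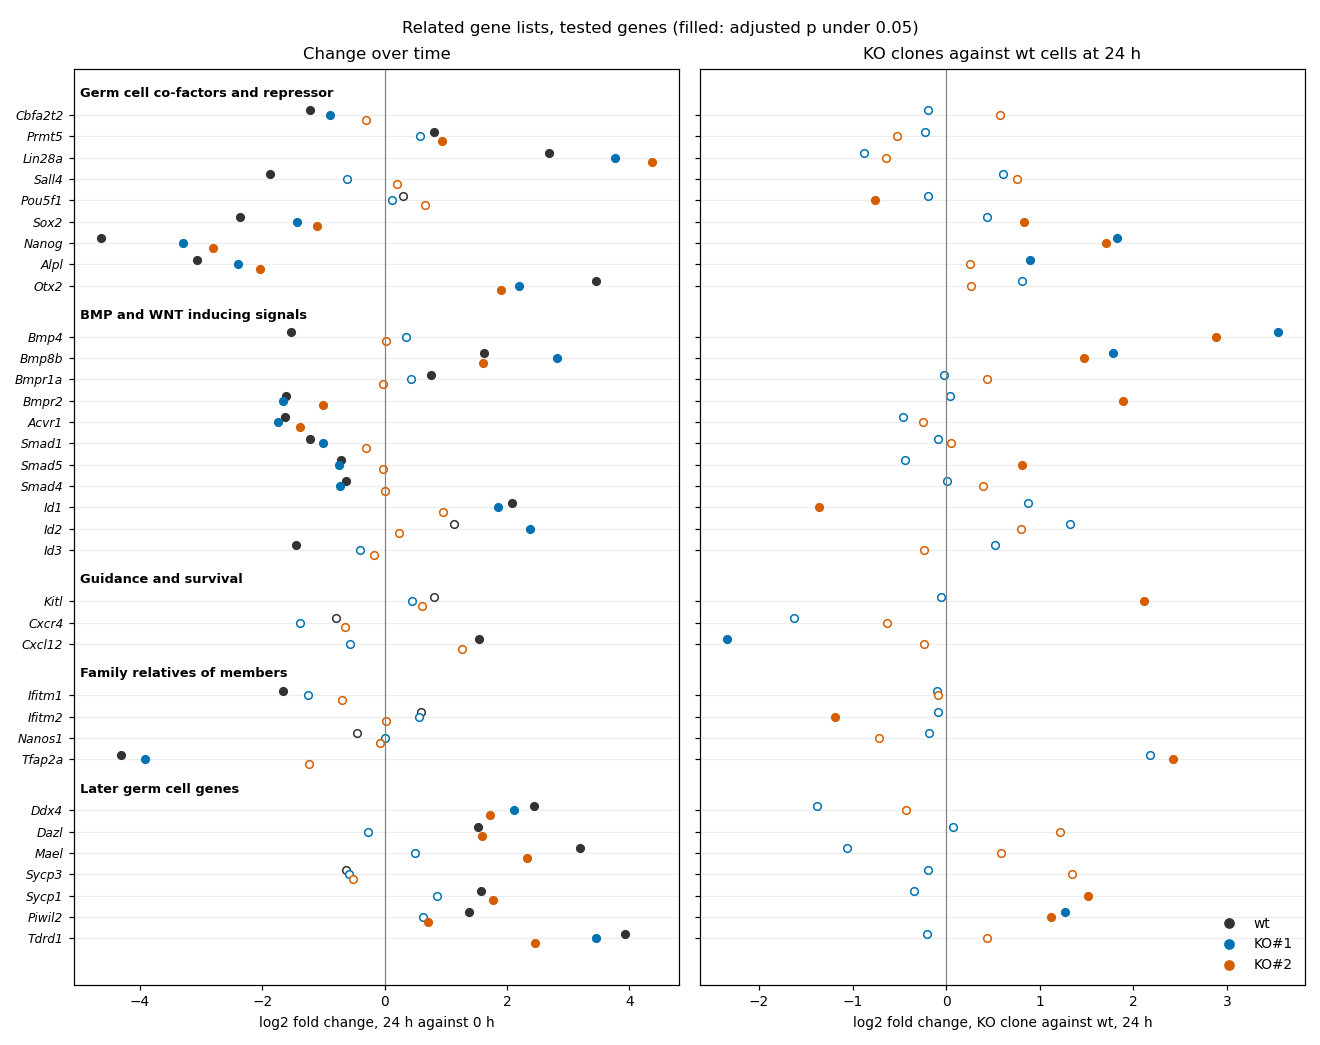
Log2 fold change of the tested genes of 5 related lists during induction (left: wt, KO#1 and KO#2) and against wt at 24 h (right: KO#1 and KO#2); filled points passed an adjusted p of 0.05. Later germ cell genes lie mostly right of 0 on the left, where 6 of 7 rose in wt, and Bmp4, Bmp8b and Nanog are filled to the right in both clones on the right.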

How the data were processed

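RNA-seq counts of 18 libraries were analysed. The authors deposited counts, whole numbers of reads per gene that are not normalized. Per the methods of the study they were made from stranded total RNA libraries with Trim Galore, removal of ribosomal sequences, alignment with STAR to GRCm38, marking of duplicates with Picard and quantification with Salmon and StringTie, while the labels name DESeq2. The annotation release of the counting is not given in the sources used here. Positions came from GENCODE M21, which holds 45143 of the 45706 identifiers, and promoters from RefSeq. Of 153 pairs of libraries, 0 were identical. The 8 genes and all gene lists were chosen with earlier results of these data known.

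With edgeR 4.0.16 (R 4.3.3, limma 3.58.1), filterByExpr at a minimum count of 10 left 16619 genes. TMM factors scaled the library sizes, and 1 quasi-likelihood model of the 6 groups was fitted to all libraries (common dispersion 0.0970), with Benjamini-Hochberg adjustment over all tested genes and a threshold of 0.05. Standard errors were obtained from F, whose square root is the size of the log2 fold change over its error. Log2 CPM used a prior count of 2. Gene names in the text follow the lists, at most 4 genes from each, those called in the most comparisons and then the most abundant, apart from Bmp4, Dcn, Eomes and Gsc, which were chosen after their values were seen. Genes most alike were the 3 protein-coding genes with the highest Pearson correlation of log2 CPM. The fibroblast score is the mean log2 CPM of Acta2, Dcn, Lox, Postn, Thy1, Col3a1, Col1a2 and Col1a1. Alternatives were DESeq2 1.42.0, RLE factors, library sizes alone, 2 filters on low counts, only the groups compared, a replicate block, an adjusted p under 0.01, a minimum log2 fold change of 1 in size, each library left out and, added after seeing the data, protein-coding genes only and 3 libraries left out. The steps were tested on simulated counts. Replicates are biological per the methods, and p-values measure the spread between these libraries of 1 clone each. Figures used Python 3.11.15 with matplotlib 3.10.9.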

Additional observations from a re-analysis of the deposited data

Results flagged for a closer look

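For 2 of the 7 tested genes the change from 0 h to 24 h differed between the KO#2-labelled libraries and wt by the interaction test in edgeR, against 1.47% of all genes called. The difference for Kit was 2.39 on the log2 scale (adjusted p = 0.007), and each KO#2-labelled library was below each wt library at 0 h and above each at 24 h. The difference for Prdm1 was 1.86 (adjusted p = 0.0185), with overlapping libraries at 0 h and none at 24 h. The Prdm1 call was lost without wt replicate 3 of 0 h or wt replicate 2 of 24 h (adjusted p = 0.0727 and 0.0689). It was also lost without replicate 2 of 0 h of the KO#2-labelled libraries (adjusted p = 0.0611). In the KO#2-labelled libraries 4 of 8 fibroblast genes were higher than in wt at 0 h and 6 of 8 at 24 h (38.1% and 37.3% of all genes called), and the share of protein-coding counts was 78% and 83.1% at 0 h and 24 h, against 61.3% and 54.4% in wt. At 24 h all 4 tested primitive endoderm genes (median log2 2.06) were also higher than in wt, as was Eomes (2.45) of the 2 tested mesendoderm genes, while Gsc did not pass (0.66) and fell during induction (-2.69). The part of these in the differences was not tested.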

How the results depend on the processing

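Over the alternatives, 1218 member values kept their sign and side of the threshold, 64 lost a call, 28 gained one and 50 changed sign, and none of the sign changes touched a value called in the main setting. All calls of Tfap2c held in 48 of 48 fits, of Prdm14 in 78 of 80 and of Kit in 122 of 125, against 75 of 102 for Dnd1, 26 of 34 for Ifitm3, 55 of 64 for Dppa3 and 93 of 108 for Prdm1. The causes of these changes were not tested. The replicate numbers were not treated as pairs, since 16 of 45 same-numbered pairs had r over 0.1 (mean 0.0531, lowest -0.255, against a mean of -0.0266 for different numbers). As a hint of shared numbers in the data, 11 of 18 libraries were closest to their own number, and at 24 h the share of protein-coding counts ran alike by number in wt (58.2%, 41.6% and 63.4%) and KO#1 (50.5%, 41.3% and 63.1%). With the replicate block 5, 6 and 5 members were called during induction in wt, KO#1 and the KO#2-labelled libraries (52%, 41.7% and 27.2% of all genes). Library sizes alone moved the median over all tested genes by -0.61 in wt and -0.79 in KO#1 during induction, by 0.45 and 1.04 between the KO#2-labelled libraries and wt at 0 h and 24 h, and by 0.31 and 1.07 between the clones. Low counts limit Nanos3, and Prdm14 in wt at 24 h.

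Counts of members called are followed by the share of all genes called in the same fit. With at least 10 counts in every library, which removes Prdm14, Tfap2c and Dppa3 from the test, 3, 3 and 2 members were called during induction in wt, KO#1 and KO#2 (as labelled; 60.3%, 48.2% and 26.9%), 0 and 2 against wt at 0 h for KO#1 and KO#2 (4.87% and 39.3%), 1 for KO#1 at 24 h (8.49%) and 0 between the clones at 0 h (29.9%). With only the groups compared the counts were 0 and 4 for KO#1 against wt at 0 h and 24 h (3.45% and 13.8%), and 0 and 4 between the clones (22.5% and 35%). With an adjusted p under 0.01 they were 0 for KO#1 against wt at both times (3.01% and 4.85%), 0 between the clones at 0 h (11.5%) and 1 for the KO#2 response (0.193%), and with a minimum log2 fold change of 1 in size the count between the clones at 0 h was 0 (18.4%). With protein-coding genes only, 2 members (Dppa3 and Nanos3) were called in KO#1 against wt at 0 h (6.87%), and without 3 libraries 0 there (4.74%), 0 between the clones at 0 h (23.1%) and 1 at 24 h (31.1%). With library sizes alone the counts were 2 (KO#2 against wt at 0 h, 33.1%), 1 (KO#1 against wt at 24 h, 6.55%), and 0 and 4 between the clones (20.9% and 60.1%). Without the filter they were 4 between the clones at 24 h (21%), 1 for the KO#1 response (1.06%) and 5 for the KO#2 response (5.90%).

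Leaving out each library in turn gave 0 to 2 members in KO#1 against wt at 0 h (3.45% to 5.41% of all genes), 2 to 4 in KO#2 against wt at 0 h (25.8% to 32.5%), 1 to 2 in KO#1 against wt at 24 h (5.99% to 7.52%), 0 to 3 and 1 to 3 between the clones at 0 h and 24 h (15.3% to 20.9% and 25.3% to 30.9%), and 1 to 3 for the KO#2 response (0.296% to 3.30%).

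Sign changes outside single libraries were, for Ifitm3 in wt during induction, -0.60 (library sizes alone), -0.06 (at least 10 counts) and -0.14 (3 libraries left out). Leaving out the 3 libraries also gave 0.27 for Ifitm3 in KO#1, -0.09 and -0.45 for Prdm1 and Prdm14 in KO#1 against wt at 0 h, 0.12 for Dppa3 in KO#2 against wt at 24 h, 0.31, 0.21 and 0.93 for Prdm14, Tfap2c and Dppa3 between the clones at 0 h, and 0.41 for Ifitm3 in the KO#1 response. Library sizes alone gave 0.18 and 0.33 for Prdm1 and Prdm14 in KO#2 against wt at 0 h, 0.97 for Dppa3 at 24 h, 0.13 for both Tfap2c and Dppa3 between the clones at 0 h, 0.27 for Ifitm3 at 24 h, -0.09 for Dnd1 in the KO#1 response, and 0.45 and 0.17 for Dnd1 and Ifitm3 in the KO#2 response. Protein-coding genes only gave 0.02 for Dppa3 in KO#2 against wt at 24 h.

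Without single libraries the log2 values that changed sign ran from -0.18 to 0.35 and -0.78 to 0.27 for Ifitm3 during induction in wt and KO#1. In KO#1 against wt at 0 h they ran from -0.04 to 0.43 (Prdm1), -0.43 to 0.64 (Prdm14) and -0.91 to 0.14 (Ifitm3), and in KO#2 from -0.51 to 0.01 (Prdm1) and -0.27 to 0.07 (Prdm14). In KO#2 against wt at 24 h they ran from -0.18 to 0.93 (Tfap2c) and -0.25 to 0.12 (Dppa3). Between the clones they ran from -0.78 to 0.31 (Prdm14), -0.51 to 0.21 (Tfap2c) and -0.57 to 0.94 (Dppa3) at 0 h and from -0.65 to 0.53 (Prdm14) at 24 h. In the KO#1 response they ran from -0.10 to 0.75 (Tfap2c), -0.14 to 0.58 (Dnd1) and -0.81 to 0.24 (Ifitm3), and in the KO#2 response from -0.30 to 0.03 (Dnd1).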
